A study of Mus musculus with 6 samples.

Results

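The transcripts described are the 10 genes Vegfa, Vegfb, Vegfc, Flt1, Kdr, Flt4, Angpt1, Angpt2, Tek and Nrp1, which encode ligands and receptors of vascular endothelial growth factor (VEGF) and angiopoietin signalling. They were taken by gene symbol from a table of read counts for 49315 genes, and each symbol matched 1 row. All 10 passed the filter on low counts, which kept 15847 genes. RNA was sequenced from the gastrocnemius, a calf muscle, of male mice of the inbred strain C57BL6J. They received an adeno-associated virus at 5 months of age, and the muscle was harvested 5 months after that. Of the 6 libraries, 3 came from muscles given AAV9-HSA-CAAHR (replicates 31, 34 and 36) and 3 from muscles given AAV9-HSA-GFP (replicates 42, 43 and 46). CAAHR is mouse aryl hydrocarbon receptor (AHR) whose ligand binding domain was deleted, which leaves it constantly active, and GFP is a green fluorescent protein that served as the control. The promoter of both vectors was HSA, from the gene of human skeletal actin, which is active in muscle fibres, whereas most of the receptors described here belong to vessel cells. All muscles received a virus, and uninjected muscle was not analysed here.

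VEGF ligands act on tyrosine kinase receptors of endothelial cells, the cells that line vessels. Skeletal muscle fibres are a major source of VEGFA and VEGFB, and loss of VEGFA from fibres is known to thin the capillary bed. KDR (VEGF receptor 2) carries most of the growth signal of VEGFA, FLT1 (VEGF receptor 1) binds VEGFA, VEGFB and placental growth factor and also exists as a soluble decoy, and FLT4 (VEGF receptor 3) binds VEGFC and VEGFD and is best known from lymphatic vessels. Neuropilin 1 (Nrp1) is a co-receptor. Angiopoietin 1 activates the receptor TEK (also called TIE2) and stabilises vessels, while angiopoietin 2, made mostly by endothelial cells, often opposes it. AHR pairs with ARNT, which is also the partner of the hypoxia-inducible factors that drive Vegfa.

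The DNA in front of the start sites is shown for 2 ligands that fibres make and for their 2 main receptors, because the transcription factor delivered in this study, AHR, binds DNA at a core of the letters GCGTG. Each is the stretch of 250 bases before a RefSeq start site (GRCm38.p6), read 5′ to 3′ on the strand of the gene, which is the minus strand for all 4. Capitals mark GCGTG or its reverse, CACGC.
Vegfa, chr17:46032378-46032627: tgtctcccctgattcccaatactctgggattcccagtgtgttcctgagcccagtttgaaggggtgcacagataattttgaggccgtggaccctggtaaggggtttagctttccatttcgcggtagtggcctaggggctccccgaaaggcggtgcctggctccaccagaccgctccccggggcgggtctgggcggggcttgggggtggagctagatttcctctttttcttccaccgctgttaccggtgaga
Vegfb, chr19:6987652-6987901: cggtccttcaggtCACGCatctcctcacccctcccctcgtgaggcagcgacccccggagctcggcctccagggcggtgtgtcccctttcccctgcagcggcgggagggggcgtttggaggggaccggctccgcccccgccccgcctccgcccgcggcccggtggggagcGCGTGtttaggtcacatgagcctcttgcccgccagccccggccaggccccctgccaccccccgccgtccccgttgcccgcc
Flt1, chr5:147726012-147726261: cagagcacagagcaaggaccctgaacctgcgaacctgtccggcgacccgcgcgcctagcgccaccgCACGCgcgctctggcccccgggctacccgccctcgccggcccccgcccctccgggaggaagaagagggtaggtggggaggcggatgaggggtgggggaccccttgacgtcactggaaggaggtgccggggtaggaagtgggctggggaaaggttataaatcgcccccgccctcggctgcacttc
Kdr, chr5:75978456-75978705: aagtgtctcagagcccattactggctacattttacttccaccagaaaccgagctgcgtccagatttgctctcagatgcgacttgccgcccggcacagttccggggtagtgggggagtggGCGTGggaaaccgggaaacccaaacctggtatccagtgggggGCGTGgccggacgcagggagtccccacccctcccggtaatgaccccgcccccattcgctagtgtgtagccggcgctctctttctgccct
The Vegfa stretch held no match and the Vegfb stretch held 2. The Flt1 stretch held 1 and the Kdr stretch 2. RefSeq windows were found for 8 of the 10 genes, without Angpt1 and Angpt2. A second RefSeq start of Vegfa lies inside the gene, and its window held 1 match. Counting both Vegfa starts, 5 of 9 windows had at least 1 GCGTG, and Flt4, Tek and Vegfc had none. Among 32851 windows of all genes 28.2% had one. G and C made up 51.2% to 76.4% of the bases of these windows, and the windows of all genes were not matched for it. The core of the hypoxia-inducible factors, ACGTG or its reverse CACGT, was found once, in the window of the inner Vegfa start, against 16.6% of all windows, and no match of one core overlapped a match of the other. A match of letters is a description of the window and does not show binding.

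Library totals ranged from 43432994 to 58825752 counts. Fast fibre genes, which mark this muscle, summed to between 148587 and 216528 CPM (the count of a gene put on a common scale of library size) in the 6 libraries. The delivered gene and its targets followed the labels: all 6 genes on the AHR list (Ahr, Ahrr, Cyp1a1, Cyp1b1, Nqo1 and Tiparp) were higher in CAAHR muscles by the edgeR quasi-likelihood test, with a summed level of 1680 to 2314 CPM against 57.1 to 66.6. Of the 15847 genes tested 1205 had an adjusted p under 0.05, of which 481 were higher and 724 lower in CAAHR muscles. The split moved to 358 higher against 990 lower under upper quartile scaling and to 876 against 600 under scaling by library size alone. One library stood apart. CAAHR replicate 34 was the lowest of the 3 CAAHR libraries for 9 of the 10 members, where the same held for 36% of all tested genes. It was also the lowest of the 3 for 15 of 18 endothelial markers, 10 of 11 markers of pericytes and smooth muscle and 9 of 9 slow fibre genes. Where leaving it out changed the call of a named gene, both values are given.

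No member passed the test across all genes, and Vegfa came nearest. After Benjamini-Hochberg adjustment over all tested genes, 0 of 10 members had an adjusted p under 0.05 in the edgeR test, against 7.60% of all tested genes (3.04% higher and 4.57% lower in CAAHR). At an unadjusted p under 0.05 there was 1 member, Vegfa, against 23.9% of all genes. The CAAHR and GFP libraries did not overlap for 1 member, again Vegfa, against 29.9% of all genes, or 15.0% counting only genes higher in CAAHR. The median log2 fold change of the 10 members was 0.09, and that of all tested genes was 0.01. The same count was 1 of 10 by DESeq2, where 12.1% of all genes passed, 1 without a filter on low counts (8.62%), 1 with library size only (9.31%), 1 without GFP replicate 43 (4.28%) and 1 without CAAHR replicate 34 (10.7%). It was 0 with DESeq2 size factors (7.72%), upper quartile scaling (8.51%), at least 10 counts in every library (7.14%), limma-voom (9.22%), edgeR without robust estimation (8.07%), a slow fibre covariate (2.75%) and without CAAHR replicate 31 (4.21%), CAAHR replicate 36 (3.28%), GFP replicate 42 (5.17%) or GFP replicate 46 (3.76%).

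**Figure D1:**
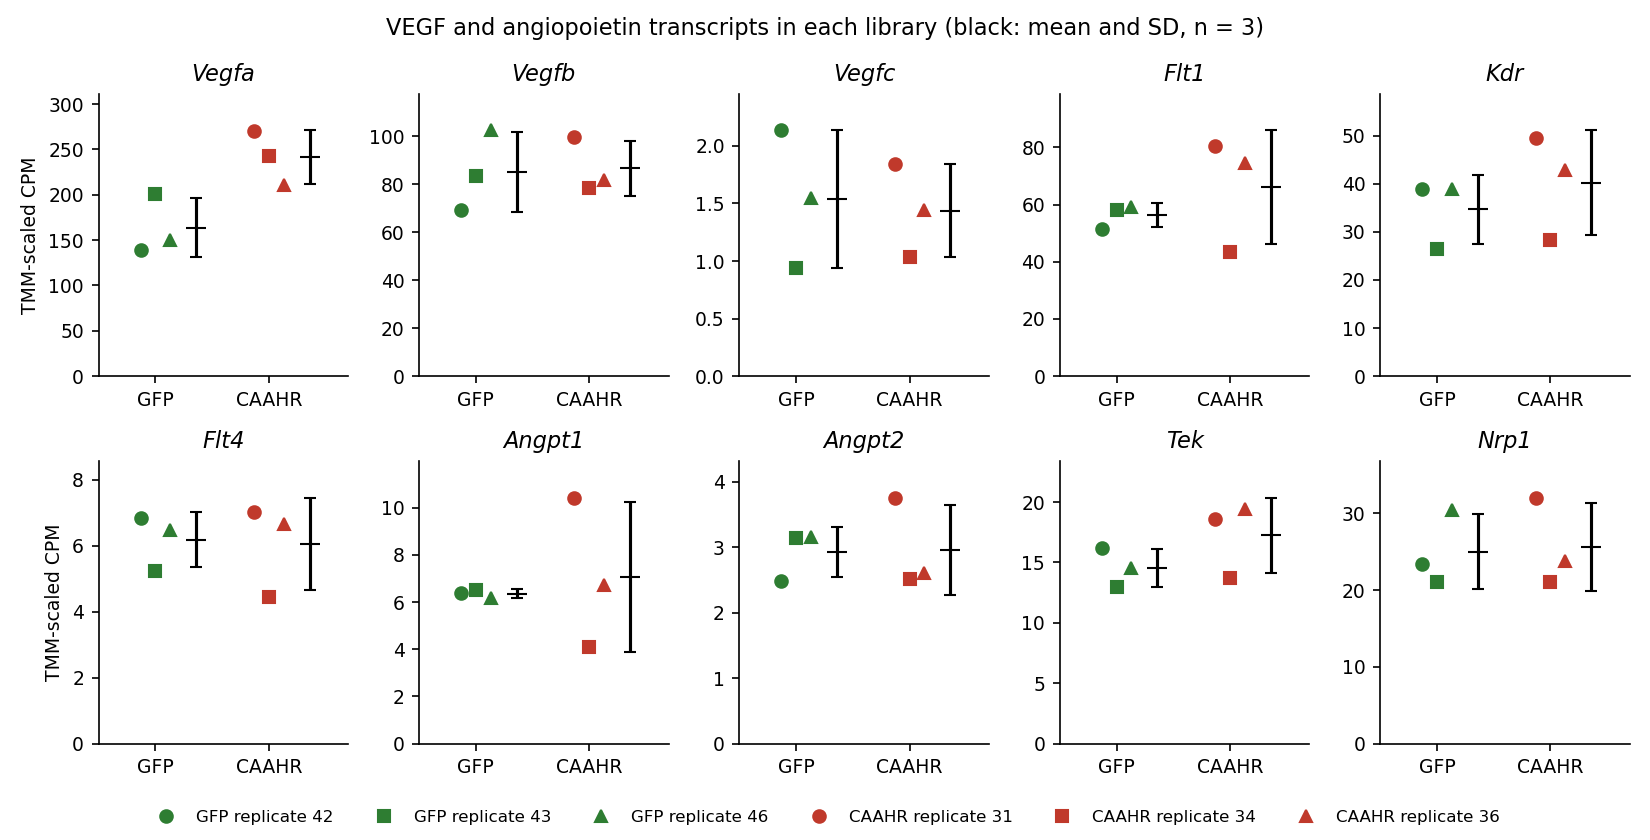
TMM-scaled CPM (vertical axes, each starting at 0) of the 10 members in each GFP library (green) and CAAHR library (red), with symbols marking replicates and black bars the mean and SD of 3 libraries. The groups separate for Vegfa, from 139 to 200.4 CPM in GFP and from 211 to 270.4 CPM in CAAHR, and overlap for the other 9 genes, in which CAAHR replicate 34 is the lowest CAAHR library.

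Among the ligands, Vegfa (ENSMUSG00000023951, chromosome 17, 46016993 to 46032369, GRCm38) encodes the main growth factor for blood vessels. It was at 270.4 CPM in CAAHR replicate 31, 242 in replicate 34 and 211 in replicate 36. In GFP muscles it was at 139 in replicate 42, 200.4 in replicate 43 and 151 in replicate 46. All 3 CAAHR libraries thus lay above all 3 GFP libraries, with the gap between the groups narrowed by GFP replicate 43. The means were 241 ± 29.8 and 163 ± 32.5 CPM (SD, n = 3). This was a log2 fold change of 0.56 ± 0.15 (SE), with a 95% interval from 0.22 to 0.91, or 1.48-fold with an interval from 1.16 to 1.87. The edgeR test gave an unadjusted p of 0.00477 (adjusted p 0.0554), so Vegfa did not pass, and by p it ranked at 1365 of the 15847 genes. It was called by DESeq2 (adjusted p 0.00941), without a filter on low counts (5.89e-05), with library size only (0.0328) and without GFP replicate 43 (log2 fold change 0.73, adjusted p 0.0234). It was not called under the other 11 alternatives, and its adjusted p over all 15 ranged from 5.89e-05 to 0.381. The direction was the same in all 15, with log2 fold changes from 0.46 to 0.73. The count is the sum over all splice forms of the gene, so the forms that differ in matrix binding could not be told apart.

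Vegfb (ENSMUSG00000024962, chromosome 19, 6982473 to 6987651) encodes a ligand of FLT1 known mainly from heart, muscle and fat metabolism. It was at 99.4, 78.2 and 81.8 CPM in CAAHR replicates 31, 34 and 36, and at 69.2, 83.3 and 102 CPM in GFP replicates 42, 43 and 46. The groups overlapped fully, and the highest GFP library lay above every CAAHR library. Its log2 fold change was 0.03 with a 95% interval from -0.32 to 0.37, or from 0.803-fold to 1.29-fold. Within each library, the ratio of Vegfa to Vegfb counts was 2.72, 3.10 and 2.58 in CAAHR replicates 31, 34 and 36. In GFP replicates 42, 43 and 46 it was 2.01, 2.41 and 1.47. This ratio does not depend on scaling between libraries, and it was higher in 3 of 3 CAAHR libraries than in any GFP library, by 0.54 on the log2 scale. The exact two-sided permutation test gave p = 0.1, the smallest that 3 against 3 allows, and 0.6 after adjustment over 6 ratios.

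Vegfc (ENSMUSG00000031520, chromosome 8, 54077606 to 54187096), the ligand of FLT4 that drives growth of lymphatic vessels, was the scarcest member. It was at 1.84, 1.03 and 1.44 CPM in CAAHR replicates 31, 34 and 36 and at 2.13, 0.937 and 1.55 CPM in GFP replicates 42, 43 and 46. Its libraries held between 39 and 103 counts, and its log2 fold change of -0.11 had the widest interval of the 10, from -0.84 to 0.63.

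Of the receptors, Flt1 (ENSMUSG00000029648, chromosome 5, 147561604 to 147726011) was at 80.3 CPM in CAAHR replicate 31, 43.5 in replicate 34 and 74.5 in replicate 36. In GFP replicates 42, 43 and 46 it was at 51.4, 58.2 and 59.1 CPM. The GFP libraries were close together, 2 CAAHR libraries lay above them and 1 below. The fit gave a log2 fold change of 0.23 ± 0.21 (SE) with an interval from -0.25 to 0.72. Without CAAHR replicate 34 it was 0.45, and the edgeR test then gave an adjusted p of 0.0237. That was the only call of a member in that fit, 1 of 10, where 10.7% of all genes were called. The full-length receptor and the soluble decoy come from the same gene and were counted together.

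Kdr (ENSMUSG00000062960, chromosome 5, 75932827 to 75978458) was at 49.6, 28.2 and 42.8 CPM in CAAHR replicates 31, 34 and 36, and at 38.9, 26.4 and 38.8 CPM in GFP replicates 42, 43 and 46. Each group held 1 low library, CAAHR replicate 34 and GFP replicate 43, and the others were higher in CAAHR. This gave a log2 fold change of 0.21 with an interval from -0.33 to 0.75, and 0.40 without CAAHR replicate 34 (edgeR, adjusted p 0.184). The ratio of Flt1 to Kdr counts within a library was 1.62, 1.54 and 1.74 in CAAHR replicates 31, 34 and 36. In GFP replicates 42, 43 and 46 it was 1.32, 2.20 and 1.52. The difference on the log2 scale was -0.01 (exact permutation test, p = 1, and 1 after adjustment over the 6 ratios), and GFP was the more variable group.

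Flt4 (ENSMUSG00000020357, chromosome 11, 49609263 to 49652739) was at 7.04, 4.46 and 6.68 CPM in CAAHR replicates 31, 34 and 36, and at 6.86, 5.24 and 6.48 CPM in GFP replicates 42, 43 and 46. Its log2 fold change was -0.03, with an interval from -0.46 to 0.40. Nrp1 (ENSMUSG00000025810, chromosome 8, 128358604 to 128503363) was at 32, 21.1 and 23.8 CPM in CAAHR and at 23.4, 21.1 and 30.5 CPM in GFP, in the same order of replicates. Both groups held 1 library above 30 CPM and 2 below 24, and the log2 fold change was 0.03, from -0.38 to 0.45.

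The angiopoietins were scarce. Angpt1 (ENSMUSG00000022309, chromosome 15, 42424723 to 42676977) was at 10.4, 4.08 and 6.73 CPM in CAAHR replicates 31, 34 and 36, and at 6.40, 6.51 and 6.17 CPM in GFP replicates 42, 43 and 46. The CAAHR libraries spread on both sides of the tight GFP values, with an SD of 3.19 against 0.173 CPM. The fitted log2 fold change was 0.15, with an interval from -0.53 to 0.83, 0.42 without CAAHR replicate 34 and -0.24 without CAAHR replicate 31. An antisense gene, Gm17473, shares 737 bases of exon with Angpt1, but it held 24 counts over all libraries against 2077 for Angpt1. Angpt2 (ENSMUSG00000031465, chromosome 8, 18690263 to 18741562) was at 3.76, 2.52 and 2.61 CPM in CAAHR and at 2.49, 3.15 and 3.15 CPM in GFP. Its log2 fold change was 0.01, with an interval from -0.45 to 0.48. The ratio of Angpt2 to Angpt1 counts, antagonist to agonist, was 0.361, 0.618 and 0.388 in CAAHR replicates 31, 34 and 36, and 0.388, 0.483 and 0.511 in GFP replicates 42, 43 and 46. These overlapped, with a log2 difference of -0.05 (exact permutation test, p = 0.8, and 1 after adjustment over the 6 ratios).

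Their receptor Tek (ENSMUSG00000006386, chromosome 4, 94739289 to 94874976) was at 18.6, 13.7 and 19.4 CPM in CAAHR replicates 31, 34 and 36, and at 16.2, 13 and 14.5 CPM in GFP replicates 42, 43 and 46. The 2 higher CAAHR libraries lay above all GFP libraries and replicate 34 lay among them. Tek had a log2 fold change of 0.24, with an interval from -0.08 to 0.57 (edgeR, unadjusted p 0.127, adjusted p 0.353). Without CAAHR replicate 34 it was 0.38 (edgeR, adjusted p 0.0807). The remaining ratios overlapped between the groups. The log2 difference was 0.04 for Tek to Kdr (exact permutation test, p = 0.9), -0.16 for Nrp1 to Kdr (p = 0.5) and 0.38 for Vegfa to Kdr (p = 0.5), each 1 after adjustment.

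**Figure D2:**
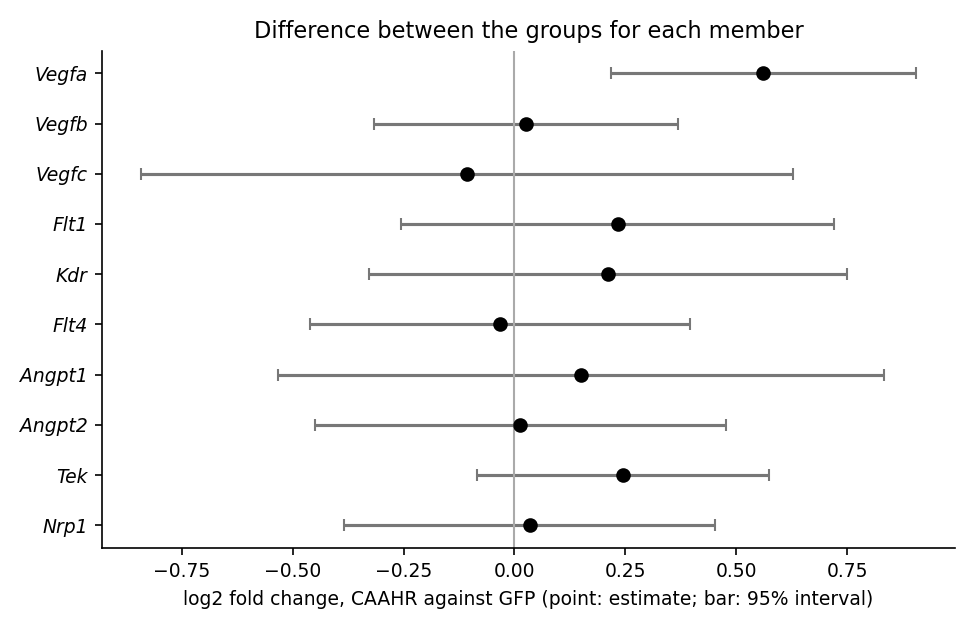
Log2 fold change of each member, CAAHR against GFP (horizontal axis), with the 95% interval of each gene as a bar, not adjusted for the number of genes tested. The Vegfa interval, from 0.22 to 0.91, lies above 0, and the other 9 intervals include 0.

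Bulk RNA cannot tell fewer cells of a type from less RNA per cell, so the receptors were also set against transcripts of the same cells. The 18 endothelial markers were all tested. None was called by the edgeR test, and the median log2 fold change was -0.05. An unadjusted p under 0.05 was found for 2 (Vwf and Plvap, both lower in CAAHR), against 23.9% of all tested genes. Their 3 most abundant genes were Cdh5, Pecam1 and Egfl7. The defining markers Pecam1 and Cdh5 had log2 fold changes of 0.10 each and Egfl7 one of -0.03. Over the list 5 were positive and 13 negative. The summed level of the list was 322, 243 and 325 CPM in CAAHR replicates 31, 34 and 36 and 316, 277 and 313 CPM in GFP replicates 42, 43 and 46. On the mean log2 CPM of the list, CAAHR replicate 34 was 0.37 below the GFP mean, and the other CAAHR libraries were 0.03 and 0.06 above it.

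Relative to this mean, Tek was at 0.76, 0.71 and 0.79 on the log2 scale in CAAHR replicates 31, 34 and 36 and at 0.52, 0.34 and 0.43 in GFP replicates 42, 43 and 46. So set, replicate 34 no longer stood apart and the groups did not overlap. The difference was 0.32 (exact two-sided permutation test, p = 0.1, the smallest possible, and 0.6 after adjustment over 6 genes). It kept its direction without each library in turn, from 0.28 to 0.37, and it was 0.47 against the median of the list. The corresponding differences were 0.28 for Flt1, 0.29 for Kdr, 0.04 for Flt4, 0.12 for Nrp1 and 0.09 for Angpt2, and these 5 overlapped between the groups, with an adjusted p from 0.6 to 0.7 by the same exact permutation test.

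**Figure D3:**
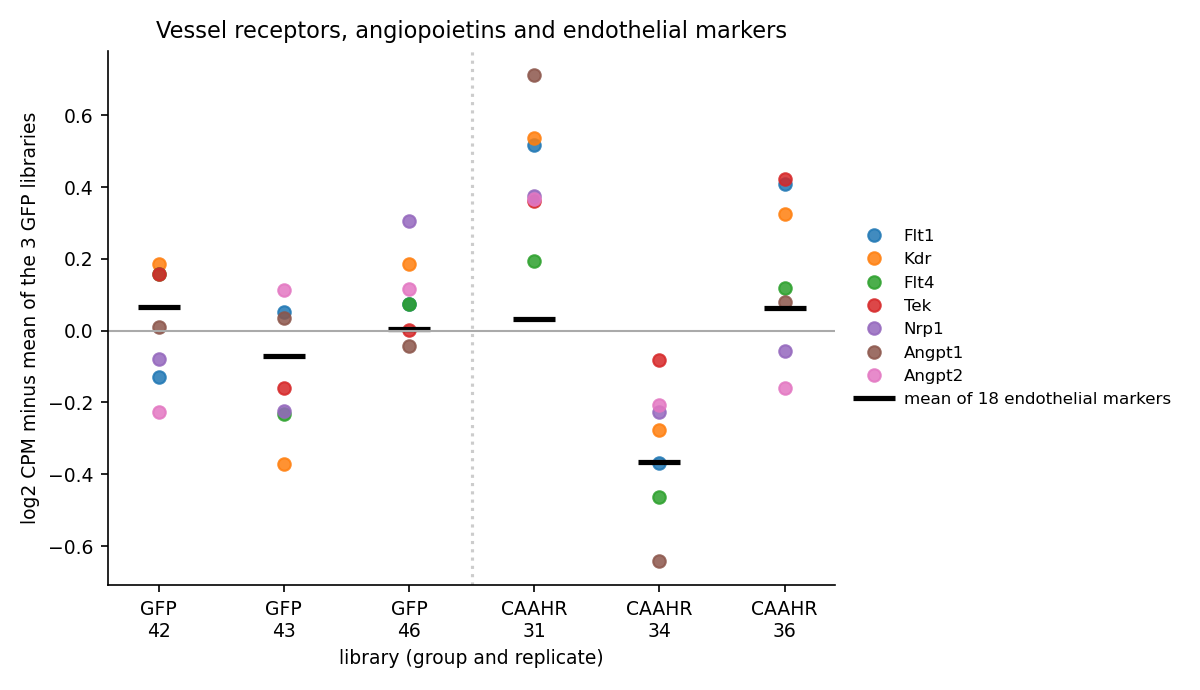
Log2 CPM of 7 vessel genes in each library, relative to the mean of the 3 GFP libraries (vertical axis), with GFP libraries on the left, CAAHR on the right and a black bar for the mean of 18 endothelial markers. In CAAHR replicate 34 that mean is 0.37 below the GFP mean and every one of the 7 genes is below 0, while Flt1, Kdr and Tek are above the marker mean in CAAHR replicates 31 and 36.

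Other cells of the vessel wall gave the following values. None of 11 pericyte and smooth muscle genes was called and 1 had an unadjusted p under 0.05, against 23.9% of all tested genes. The median log2 fold change was 0.03. The summed level was 569 to 772 CPM in CAAHR and 595 to 659 in GFP, led by Rgs5, Abcc9 and Acta2. Of 6 lymphatic endothelial genes, among them Lyve1, Pdpn and Reln, 5 were tested. None of these was called, 1 had an unadjusted p under 0.05 (23.9% of all tested genes did), and the median was -0.41. Of the 5, 4 had negative log2 fold changes, and Prox1 went the other way, at 0.59 (edgeR, adjusted p 0.277). Both rows named Ccl21a were at 0 in all libraries. The summed lymphatic level was 6.84 to 11.4 CPM in CAAHR and 11.6 to 13.9 in GFP.

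The estimates of slow fibre genes were higher in CAAHR muscles, but most of these genes did not pass. All 9 had positive log2 fold changes, with a median of 2.56, and the edgeR test called 1 (Myh7b). An unadjusted p under 0.05 was found for 8, against 23.9% of all tested genes. The list was led by Myh7, Atp2a2 and Myl3, and the groups overlapped for Myl2 and Myl3. Of these slow fibre genes, 0 to 7 were called when single libraries were left out. Their summed level was 2783, 649 and 2518 CPM in CAAHR replicates 31, 34 and 36, against 228, 333 and 461 in GFP replicates 42, 43 and 46. With the mean of this list as a covariate, Vegfa had a log2 fold change of 0.53 (edgeR, adjusted p 0.381), about as before, and that of every other member was below 0. It was -0.73 for Flt1 (adjusted p 0.0615), -1.01 for Angpt1, -0.65 for Flt4, -0.61 for Vegfc, -0.55 for Kdr, -0.54 for Nrp1, -0.46 for Angpt2, -0.40 for Vegfb and -0.19 for Tek. No member was called in that fit, against 2.75% of all genes. The covariate differs between the groups and leaves 3 residual degrees of freedom, so fibre type and the vector cannot be told apart by it. For mice given these vectors, the study isolated mitochondria from the whole gastrocnemius. It preferred this to fibre bundles, which in its methods were cut from the red portions. Which part of the muscle the RNA came from is not stated, so the share of red muscle in each library is not known here.

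The remaining lists of cell markers had called genes for B cells and plasma cells, neutrophils, adipocytes and fast fibres. Genes called lower in CAAHR were 5 of 8 for B cells and plasma cells, 4 of 5 tested for neutrophils, 3 of 7 for adipocytes and 3 of 11 for fast fibres. Of all tested genes 4.57% were called lower. When single libraries were left out, the calls in either direction ranged from 0 to 6, 2 to 4, 0 to 3 and 0 to 7 in these lists. The summed adipocyte level overlapped between the groups, at 86.5 to 139 CPM in CAAHR and 109 to 231 in GFP. None was called of 8 macrophage, 9 fibroblast and 7 Schwann cell genes. Of these, 6, 2 and 2 had an unadjusted p under 0.05, against 23.9% of all tested genes. The summed B cell level was 11.2 to 19.8 CPM in CAAHR and 145 to 579 in GFP. The summed macrophage level was 18.3 to 31.6 CPM in CAAHR and 33.1 to 70.5 in GFP. The study reported, by quantitative PCR, that selected immune genes were not lower in CAAHR muscle than in muscle without virus. It read this as a local immune response of muscle to the GFP vector. Uninjected muscle is not among these libraries, so which group departs from it was not tested here. The part of these cells in the values of the members was not tested either.

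Levels between members were compared per kb of exon. In GFP muscles Vegfb was at 52.9 ± 10.4 CPM per kb and Vegfa at 38.1 ± 7.59 (SD, n = 3), and their ranges overlapped. Flt1 followed at 4.16 ± 0.314, a step that no GFP library bridged. Kdr was at 3.84 ± 0.796, Tek at 3.09 ± 0.338 and Nrp1 at 2.55 ± 0.500 CPM per kb, each overlapping its neighbours. Angpt1 (1.22 ± 0.0332) lay below all of these and above Angpt2 (0.794 ± 0.104), Flt4 (0.752 ± 0.103) and Vegfc (0.629 ± 0.244), and the last 3 did not differ beyond their spread. In CAAHR muscles the order of the means was the same except that Vegfa (56.3 ± 6.96 CPM per kb) was level with Vegfb (53.9 ± 7.08). There Angpt1, at 0.783 to 2 CPM per kb, was not separate from Angpt2 (0.683 to 1.02) and Flt4 (0.542 to 0.855). Per length of the longest transcript instead of all exons, Nrp1 came above Kdr and Flt4 above Angpt2 in both groups, so those places in the order depend on the length used.

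**Figure D4:**
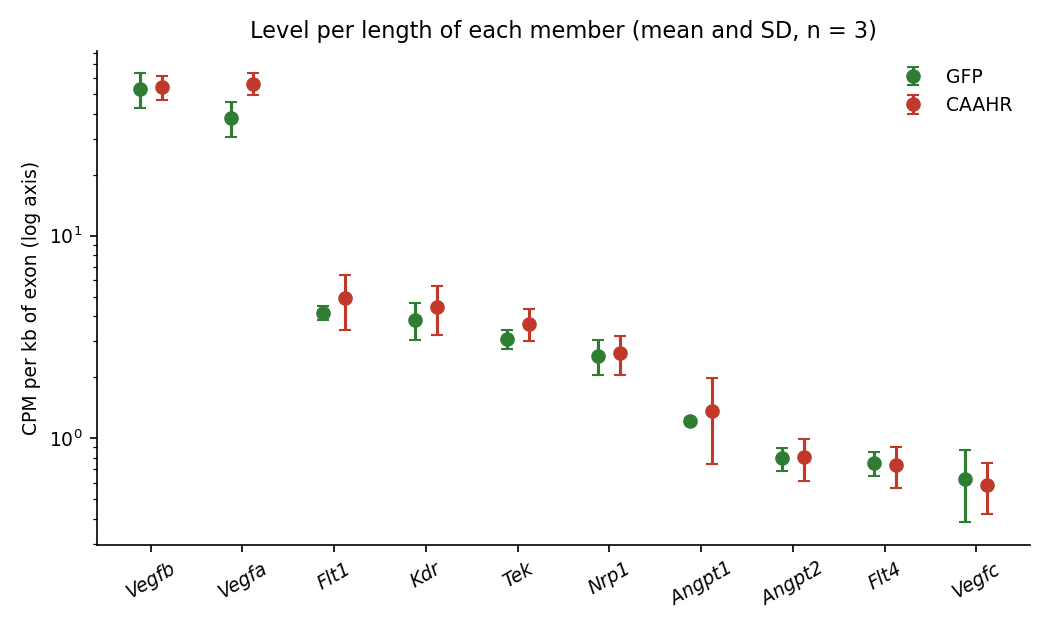
CPM per kb of exon (vertical log axis) of the 10 members in GFP (green) and CAAHR (red) muscles, as mean and SD of 3 libraries. Vegfb and Vegfa lie near 40 to 56 CPM per kb and all others below 5.

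The 5 genes whose profile over the 6 libraries was most like that of Vegfa, by the root mean square difference of centred log2 CPM, were Ube2ql1 (0.0805), 2310014F06Rik (0.0854), Adam1a (0.0866), Nudt8 (0.105) and Sdcbp (0.115). Of these, Sdcbp, which encodes syntenin 1, was called by the edgeR test, with a log2 fold change of 0.54 (adjusted p 0.0201), and at 41.5 against 28.4 CPM it was the most abundant. These genes were picked for their likeness over the same 6 libraries, which also fixes that their fold changes are near that of Vegfa.

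The wider pathway was followed in 7 lists of 116 genes, of which 115 were tested. By the edgeR test 12 of the 115 were called, 4 higher and 8 lower, against 7.60% of all genes. Among 10 other ligands and receptors, Vegfd, a lymphatic growth factor that binds FLT4, fell. It was at 3.66, 2.99 and 3.33 CPM in CAAHR replicates 31, 34 and 36 and at 6.07, 4.93 and 5.14 CPM in GFP replicates 42, 43 and 46, without overlap. This log2 fold change of -0.69 ± 0.15 (SE, adjusted p 0.0271 by edgeR) was called, and the call was lost without CAAHR replicate 36 or any 1 GFP library (adjusted p from 0.0547 to 0.0953) and with the slow fibre covariate (0.201), where the log2 fold change was -0.83. The other 9 were not called, with a list median of -0.15, and the most abundant of them, the semaphorin receptor Plxnd1 (-0.10) and the phosphatase Ptprb that restrains TEK (0.09), were near 0.

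Below KDR and TEK, 1 of 25 genes was called. Pik3r1, the regulatory subunit of phosphoinositide 3-kinase that insulin and many other receptors also use, was at 70.4, 59.2 and 77.0 CPM in CAAHR replicates 31, 34 and 36 and at 22.8, 31.6 and 24.6 CPM in GFP replicates 42, 43 and 46. It rose by 1.39 ± 0.14 (log2, SE, adjusted p 0.00100 by edgeR) and was called under all 15 alternatives. The small GTPases Rac1 (-0.16) and Cdc42 (0.05), the most abundant of the list, did not pass, and the list median was 0.03. Of 15 genes of Notch signalling and sprouting, Flrt2, an adhesion protein that binds guidance receptors of the UNC5 family, rose by 0.97 ± 0.19, and the chemokine receptor Cxcr4 fell by 0.94 ± 0.23 on the log2 scale (edgeR, adjusted p 0.0155 and 0.0413). Flrt2 did not pass without CAAHR replicate 31, GFP replicate 43 or GFP replicate 46 (edgeR, adjusted p from 0.0532 to 0.0608) and with the slow fibre covariate (0.205, at a log2 fold change of 0.91). Cxcr4 did not when CAAHR replicate 31, CAAHR replicate 36, GFP replicate 43 or GFP replicate 46 was left out (edgeR, adjusted p from 0.096 to 0.146) and with the covariate (0.381, at -0.83). The list median was -0.13, and Jag2 (-0.04) and Hes1 (-0.29) were not called.

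None of 13 genes of oxygen sensing was called, and their median was -0.03. An unadjusted p under 0.05 was found for 4 of the 13, against 23.9% of all tested genes. The hypoxia-inducible factor genes Hif1a and Epas1 had log2 fold changes of 0.23 and 0.31 and Arnt one of -0.03, none of them called. Egln1 (-0.04) and Hif1an (0.29), hydroxylases that mark and silence these factors, were the most abundant. Of 20 genes that hypoxia-inducible factors are known to drive, Kdm3a, a histone demethylase, rose by 0.78 ± 0.10 and Pdk1, a kinase of pyruvate dehydrogenase, by 0.45 ± 0.11 (edgeR, adjusted p 0.00253 and 0.0359). The lipoprotein receptor gene Vldlr fell by 0.74 ± 0.11 (adjusted p 0.00381). Kdm3a was at 21.2, 21.3 and 21.1 CPM in CAAHR replicates 31, 34 and 36 and at 13.4, 12.5 and 11 CPM in GFP replicates 42, 43 and 46, and it was called under all 15 alternatives, whereas Pdk1 lost its call when any 1 library other than CAAHR replicate 34 was left out (edgeR, adjusted p from 0.0898 to 0.129), with upper quartile scaling (0.0622) and with the slow fibre covariate (0.81), where its log2 fold change was 0.10. Vldlr lost its call with that covariate alone (0.1), where its log2 fold change was -0.64. The glycolytic genes Aldoa (-0.13) and Ldha (-0.09) were the most abundant and did not pass, and the list median was -0.04.

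Among 18 tested genes of other angiogenic growth factors and receptors, 2 fell. Igf1, insulin-like growth factor 1, was at 6.68, 4.32 and 4.66 CPM in CAAHR replicates 31, 34 and 36 and at 10.7, 9.97 and 10.9 CPM in GFP replicates 42, 43 and 46. Its log2 fold change was -1.01 ± 0.17 (edgeR, adjusted p 0.00773), and it was called under all 15 alternatives. Pdgfa, a platelet-derived growth factor, fell by 0.72 ± 0.14 on the log2 scale (edgeR, adjusted p 0.0177). It no longer passed when CAAHR replicate 31 (0.0787) or 36 (0.0816) was left out, nor with the slow fibre covariate (0.258, at a log2 fold change of -0.65). Fgfr1 (-0.11) and Eng (0.47) were the most abundant and did not pass, but without CAAHR replicate 34 Eng, an endothelial co-receptor for transforming growth factor beta, was at 0.74 (edgeR, adjusted p 0.00304), and with the slow fibre covariate it was at -0.81 (0.0718). The list median was -0.09.

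Of 14 inhibitors of angiogenesis 3 fell. The chemokines Cxcl9 and Cxcl10, which interferon induces and which draw T cells, had log2 fold changes of -3.93 ± 0.54 and -2.41 ± 0.46, and the growth factor antagonist Spry2 had one of -0.45 ± 0.11 (edgeR, adjusted p 0.00477, 0.0149 and 0.0387). Cxcl9 was at 0.138 to 0.263 CPM in CAAHR and 1.77 to 5.53 in GFP. Both chemokines were lower in CAAHR than in GFP muscles beside the immune lists given above, whose part in their values was not tested. Whether CAAHR or GFP muscle departs from uninjected muscle in them was not tested here. With the slow fibre covariate Cxcl9 and Cxcl10 lost their calls (edgeR, adjusted p 0.217 and 0.492), at log2 fold changes of -3.21 and -0.88, and Cxcl10 also did without CAAHR replicate 31 (0.0619). Spry2 lost its call without any library but CAAHR replicate 34 (edgeR, adjusted p from 0.0814 to 0.133), with library size only (0.0599) and with the covariate (0.536, at -0.28). Dcn (-0.17) and the fatty acid and thrombospondin receptor Cd36 (0.94) were the most abundant and not called by the edgeR test. Cd36 was called by DESeq2 (adjusted p 0.00422), by limma-voom (0.0405) and by edgeR without CAAHR replicate 34 (log2 fold change 1.23, adjusted p 0.000565), and with the slow fibre covariate it was at -0.40 (0.551). Dcn was called with that covariate (-1.24, adjusted p 0.00866) and was at 0.073 without CAAHR replicate 34. The list median was -0.14.

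**Figure D5:**
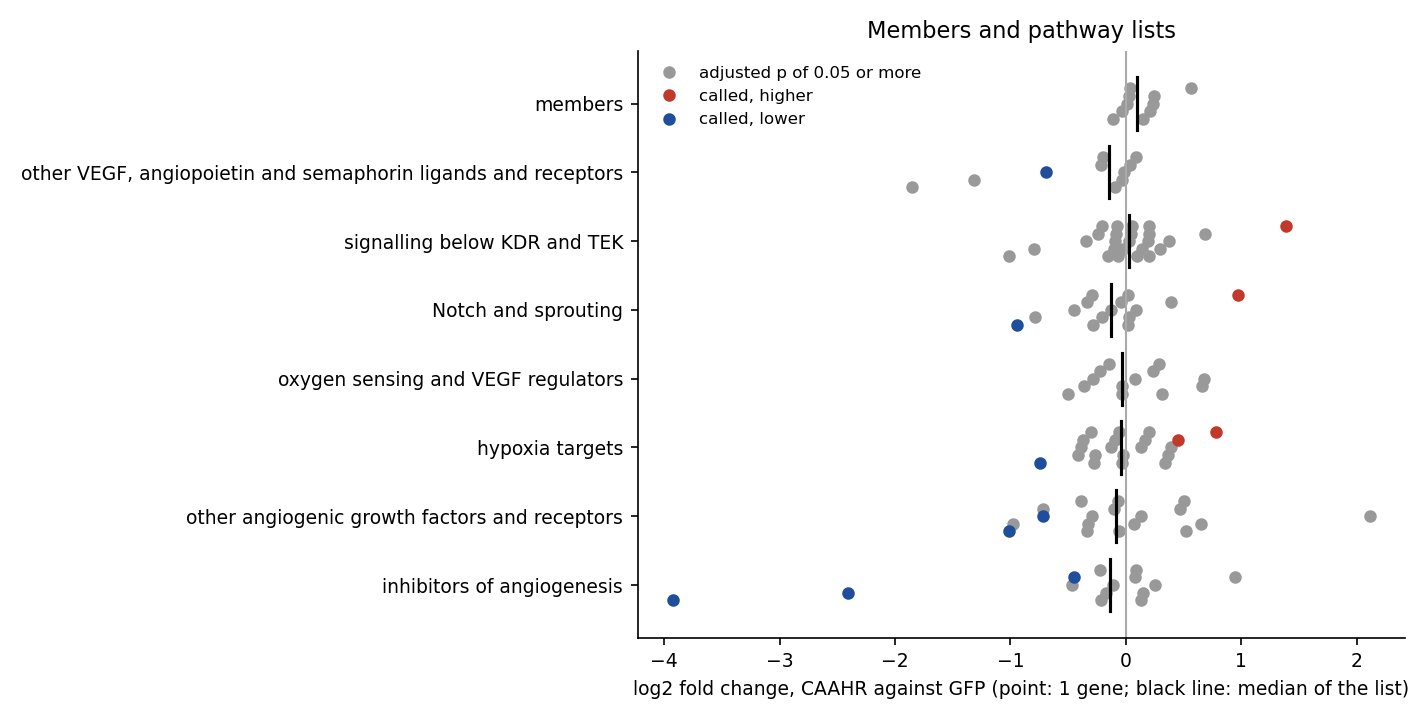
Log2 fold change, CAAHR against GFP (horizontal axis), of each tested gene of the 10 members and 7 pathway lists, with called genes in red (higher) and blue (lower) and the list median as a black line. The medians lie between -0.15 and 0.09, and of the called genes 4 lie to the right and 8 to the left of 0, some of them no farther from 0 than genes that were not called.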

How the data were processed

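Counts per gene were deposited by the authors as whole numbers for 6 libraries, 3 per group, assigned by their titles. Per the labels and methods, poly(A)-selected paired-end reads were trimmed with Trimmomatic 0.36, aligned to GRCm38 with STAR 2.5.2b, and unique reads in exons were counted with featureCounts. Whether the libraries were stranded was not stated. Gene positions and exon lengths came from GENCODE M21 (GRCm38).

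Counts were filtered with filterByExpr, scaled by TMM and tested with the robust quasi-likelihood F test of edgeR 4.0.16 in R 4.3.3, with Benjamini-Hochberg adjustment over all 15847 tested genes at 0.05. The SE came from the F statistic. CPM were TMM-scaled. Ratios and levels relative to endothelial markers used exact two-sided permutation tests, whose smallest p was 0.1. Alternatives were other scalings, filters, DESeq2 1.42.0 (the tool of the study), limma 3.58.1 voom with sample weights, a slow fibre covariate and leaving out each library. Calculations were tested on simulated data.

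The members and lists were chosen with earlier results of these data known. From each pathway list the called genes (at most 4) and the 2 most abundant were named, with the 3 most abundant of cell lists where described. The values given for Hif1a, Epas1 and Arnt, and for Fgf1, were chosen after they were seen. The labels do not say that libraries came from separate animals, so p-values measure the spread between these libraries. No library pair of a group agreed within sampling noise (lowest chi-square divided by its degrees of freedom 21.6). The intervals of the fold changes rest on the same F test as the SE. They therefore include the spread between libraries as well as counting error.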

Additional observations from a re-analysis of the deposited data

How the results depend on the processing

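No paired analysis was possible because no replicate number occurs in both groups. The count of members called, 0 as reported, was 1 (Vegfa) with library size only, without a filter and with DESeq2, and it lay between 0 and 1 when single libraries were left out, the 1 being Flt1 without CAAHR replicate 34 and Vegfa without GFP replicate 43. The count of pathway genes called, 12, was 24 without a filter and 19 with DESeq2, and lay between 7 and 20 when single libraries were left out. With the slow fibre covariate only Pik3r1, Kdm3a and Igf1 of the 12 kept their calls, and among the other named genes Dcn gained one. The count over all genes, 1205, was 2470 without a filter, 1919 with DESeq2, 436 with the slow fibre covariate and between 530 and 1727 when single libraries were left out. Apart from Vegfa and Flt1 no member was called under any alternative run. The cause of these shifts was not tested, and the fits with fewer libraries have fewer degrees of freedom.

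Some log2 fold changes changed sign, most of them small but also those of Cd36 (0.94 as reported) and Eng (0.47) with the slow fibre covariate. With that covariate they were -0.40 for Vegfb, -0.73 for Flt1, -0.55 for Kdr, -1.01 for Angpt1, -0.46 for Angpt2, -0.19 for Tek, -0.54 for Nrp1, -0.50 for Ptprb, 0.042 for Rac1, 0.026 for Aldoa, 0.28 for Ldha, -0.81 for Eng and -0.40 for Cd36. With upper quartile scaling they were -0.047 for Vegfb, -0.059 for Angpt2, -0.039 for Nrp1 and -0.017 for Cdc42. With library size only they were 0.053 for Flt4, 0.042 for Jag2 and 0.047 for Egln1, and with limma-voom 0.017 for Vegfc, 0.036 for Flt4 and -0.013 for Angpt2. With one library left out they ranged from -0.10 to 0.18 for Vegfb, -0.36 to 0.20 for Vegfc, -0.16 to 0.14 for Flt4, -0.24 to 0.42 for Angpt1, -0.20 to 0.11 for Angpt2, -0.16 to 0.20 for Nrp1, -0.10 to 0.26 for Ptprb, -0.11 to 0.0014 for Jag2, -0.079 to 0.0068 for Egln1 and -0.33 to 0.073 for Dcn. Ratio differences ranged from -0.17 to 0.20 for Flt1 to Kdr, -0.29 to 0.097 for Angpt2 to Angpt1 and -0.053 to 0.15 for Tek to Kdr, and differences relative to endothelial markers from -0.041 to 0.11 for Flt4 and -0.056 to 0.25 for Angpt2. Vegfc had the fewest counts of the members, 39 to 103 a library, and the widest interval. The SE did not follow the counts over the members, since Angpt1 with 233 to 527 counts had an SE of 0.30 and Angpt2 with 120 to 190 counts one of 0.21.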

Other observations

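Fgf1, which encodes a fibroblast growth factor, had the largest log2 fold change of the growth factor list and was chosen after its values were seen. It was at 84.7, 28.9 and 72.2 CPM in CAAHR replicates 31, 34 and 36 and at 11, 15.1 and 16.8 CPM in GFP replicates 42, 43 and 46, without overlap between the groups. The log2 fold change was 2.11 ± 0.45 (SE), with an adjusted p of 0.0524 by the edgeR test and from 8.32e-05 to 0.416 over 15 alternatives. Without CAAHR replicate 34 it was 2.45 (edgeR, adjusted p 8.32e-05). Its CAAHR values followed the order low, high, high of the slow fibre genes in replicates 34, 36 and 31, and with the slow fibre covariate its log2 fold change was 0.31.

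CAAHR replicate 34 was the lowest of all 6 libraries for 8 of 8 macrophage, 7 of 7 Schwann cell, 8 of 9 fibroblast, 6 of 7 adipocyte and 13 of 18 endothelial genes, where the same held for 18.9% of all tested genes. It was not the lowest of the 6 for any of 11 fast fibre or 6 AHR pathway genes.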
